A study of Rattus norvegicus with 6 samples.

Results

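The genes described here are Id1, Id2, Id3, Id4, Smad6, Smad7, Skil and Smurf1, a group of BMP and TGF-beta response genes. Of these, Smad6, Smad7, Skil and Smurf1 also brake the signal. They were found by their symbols in the deposited gene tables. All 8 were present among the 18923 genes of each table, each under 1 Ensembl identifier, and all 8 passed the filter on low counts that left 13438 genes for testing. In primary rat chondrocytes given retinoic acid, Id1, Id3 and Smad7 rose by about the same fold, which was 1.71 for Id1, 1.67 for Id3 and 1.59 for Smad7. Id1 and Id3 kept their call with any 1 sample left out, while Smad7 lost it without CON sample 1 and without RA sample 1. Id2 was 1.30-fold higher, a smaller difference that passed the test but not the fold threshold. For Id4, Smad6, Skil and Smurf1 no difference passed the test.

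The study compared 3 samples of treated cells (RA) with 3 samples of control cells (CON) by sequencing of poly(A) RNA. In both groups the cells were wild-type primary chondrocytes isolated with collagenase from the cartilage of newborn female Sprague-Dawley rats and used at an early passage, with no transgene. The RA cells spent 24 h in high-glucose medium with 10% serum and 1 µM all-trans retinoic acid, the form of vitamin A that nuclear retinoic acid receptors bind, and the CON cells spent 24 h in that medium without it. The samples are described as independent, but nothing says that they came from separate animals, so the p-values measure the spread between these samples.

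Bone morphogenetic proteins (BMPs) and TGF-beta bind pairs of receptor kinases that phosphorylate receptor Smads. These then join Smad4, enter the nucleus and switch genes on or off. Id1 to Id4 are among the best-known targets of BMP signalling. They encode helix-loop-helix proteins without a DNA-binding region, which pair with E proteins and keep them from DNA. Smad6 and Smad7 are the inhibitory Smads, which are induced by the signal and block it at the receptors, Smad6 mainly for BMPs and Smad7 for both branches. Skil encodes SnoN, a co-repressor that binds Smads in the nucleus, and Smurf1 encodes a ubiquitin ligase that marks Smads and receptors for degradation. In cartilage, BMP signalling maintains chondrocytes and drives their maturation.

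The promoters of the 4 genes with an adjusted p below the threshold are shown because these are the genes whose transcripts differed between the groups. The sequences are from RefSeq on the rat assembly GRCr8, which is not the Rnor_6.0 build behind the counts. Each run covers the 211 bases from position -250 to position -40 relative to the annotated start, 5′ to 3′ on the strand of the gene, and capitals mark a match to a searched motif.
Id1, chr3:161671314-161671524, plus strand: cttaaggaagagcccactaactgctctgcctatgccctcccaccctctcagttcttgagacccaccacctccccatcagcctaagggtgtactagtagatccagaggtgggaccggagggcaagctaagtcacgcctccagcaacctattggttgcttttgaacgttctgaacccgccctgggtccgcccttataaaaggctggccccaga
Id2, chr6:47471035-47471245, minus strand: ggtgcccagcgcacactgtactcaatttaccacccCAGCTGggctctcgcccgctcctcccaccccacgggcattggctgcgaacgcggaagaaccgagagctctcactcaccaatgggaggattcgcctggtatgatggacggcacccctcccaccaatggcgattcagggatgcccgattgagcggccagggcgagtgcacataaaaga
Id3, chr5:153656041-153656251, plus strand: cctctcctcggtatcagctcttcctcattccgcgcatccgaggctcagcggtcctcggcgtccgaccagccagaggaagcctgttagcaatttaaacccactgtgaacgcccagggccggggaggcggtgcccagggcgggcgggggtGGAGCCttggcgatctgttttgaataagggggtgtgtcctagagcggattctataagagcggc
Smad7, chr18:71263258-71263468, plus strand: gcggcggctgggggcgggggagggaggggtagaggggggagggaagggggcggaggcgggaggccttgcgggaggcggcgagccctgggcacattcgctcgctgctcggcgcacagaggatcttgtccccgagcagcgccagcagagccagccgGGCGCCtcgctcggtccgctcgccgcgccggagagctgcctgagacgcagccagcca

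The motifs searched on both strands were GTCTAGAC (the palindromic Smad binding element), the shorter letters CAGACA, which hold one Smad box, the GC-rich letters GGCGCC and the related GGAGCC, the letters of an E-box (CAGCTG, the kind of site E proteins bind) and a DR5 element, which is a pair of half-sites (each either AGGTCA or the variant AGTTCA) in one orientation with 5 bases between them and is a kind of site bound by retinoic acid receptors. Promoter windows of 300 bases, with 250 before and 50 after the start, were at hand for 6 of the 8 genes, all but Smad6 and Smurf1. Id1 held no match in its window. Id2 held 1 CAGCTG at -215 and 1 GGAGCC at +31, of which the first lies in the run above. Id3 held 1 GGAGCC at -102, and Smad7 held GGCGCC at -96 and at -36. Of the genes that did not pass the test, Id4 held 1 GGCGCC at +38, and Skil held GGCGCC at -182 and -9 and GGAGCC at -242. These letters are common: of 33469 rat promoter windows, 27.9% held GGAGCC, 15.1% CAGCTG, and 11.0% had the letters GGCGCC at least once. GTCTAGAC, CAGACA and DR5 were in none of the 6 windows, and were in 0.197%, 21.1% and 0.0299% of all windows. The 6 windows were 55.7% to 77.7% G or C, against a median of 51.7% over all windows. A match here is a description of letters and not a bound site.

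Total counts ran from 30170909 to 38007486 in CON and from 29370025 to 30952882 in RA, and even the lowest count of a gene described here was 254, far above the 3 counts that a count of 0 allows. Genes of the response to retinoic acid separated the groups: 6 of 8 tested rose, among them Cyp26a1, an enzyme that degrades retinoic acid, with a log2 fold change of 3.35. Chondrocyte markers were abundant in every sample, with a summed level of 8321 to 10337 FPKM over 12 genes in CON and 5238 to 5586 FPKM in RA, and 11 of the 12 fell. FPKM is a level scaled by gene length and by the total of the library. Summed fibroblast and perichondrium markers (7 genes) were 3960 to 5080 FPKM in CON and 4983 to 5221 FPKM in RA, mostly Col1a1, and 0 of the 7 rose, 1 fell and their median log2 fold change was -0.00068 (-0.08 without CON sample 1 and 0.07 without CON sample 3). Endothelium markers summed to at most 0.214 FPKM, with Emcn at 0 counts in all samples, while 8 macrophage markers summed to 13.8 to 15.0 FPKM in CON and 16.4 to 17.9 FPKM in RA. Most of that sum was Cd14, at 11.9 to 13.5 FPKM in CON and 14.5 to 15.8 FPKM in RA, whereas Adgre1 and Ptprc were at or near 0, and of the 4 macrophage markers tested 0 were DEGs in edgeR or DESeq2 (1 was higher at an unadjusted p under 0.05). Skeletal muscle markers (6 genes) summed to 4.59 to 5.76 FPKM in CON and 6.87 to 7.67 FPKM in RA, mostly Des at 4.43 to 5.65 and 6.38 to 7.14 FPKM, and of 2 tested 1, Myod1, rose. Both sums were higher in every RA sample than in any CON sample. The part of these cell type markers in the results below was not tested. In bulk samples, fewer cells of a type and less RNA per cell cannot be told apart.

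CON sample 1 stood apart from the other controls. In it, 11.5% of genes tested lay more than 0.5 from the mean of the other samples of its group on a log2 scale of counts scaled to library size (CPM), against 2.67% to 4.79% in the other 5 samples. Its chondrocyte markers had the lowest sum of the CON group. It also held the lowest CON value of 5 of the 8 genes, so the 8 genes are given with and without it, as are several other genes. Without it the RA samples were compared with 2 controls.

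**Figure D1:**
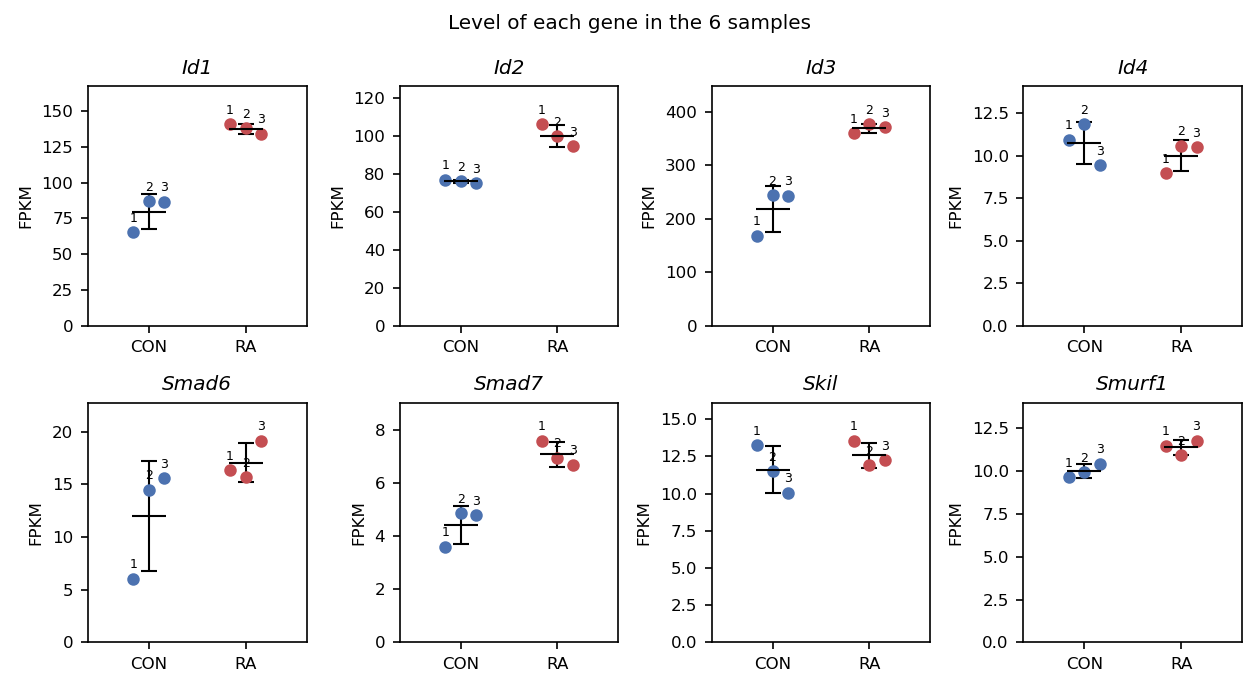
FPKM (y axis, starting at 0) of each gene in the 3 CON and the 3 RA samples, numbered as in the text, with the mean and the SD over 3 samples as bars. The groups are apart for Id1, Id2, Id3, Smad7 and, narrowly, Smurf1, they touch for Smad6, and CON sample 1 is well below the other 2 controls for Id1, Id3, Smad6 and Smad7.

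In the comparison of RA with CON, 3 of the 8 genes were differentially expressed genes (DEGs) and higher in RA, namely Id1, Id3 and Smad7, and 0 were lower. DESeq2 also called 3 higher and 0 lower, and at an unadjusted p under 0.05 in edgeR 5 of the 8 were higher and 0 lower, against 12.3% and 11.7% of all genes. A DEG needed an adjusted p under 0.05 together with a log2 fold change (log2FC) of RA over CON past 0.58 either way. Over all genes tested, 2.67% were DEGs higher in RA and 2.29% were DEGs lower, 4.96% in all. By the adjusted p alone 4 of the 8 were higher, Id2 being the fourth, and 0 were lower, against 5.31% higher, 4.5% lower and 9.82% in either direction among all genes. On the scaled counts (CPM), the 3 RA samples all lay above the 3 CON samples for 5 of the 8 genes, namely Id1, Id2, Id3, Smad7 and Smurf1, against 16.8% of all genes, and for none did they all lie below, against 15.1%. For 7 of the 8, all but Id4, the log2FC was above 0, against 48.9% of all genes. The 8 genes were chosen with earlier results of these data known, so these shares describe them and are not a test. The median log2FC over all genes tested was -0.0057. The scaling of the counts itself holds this median near 0, so it cannot show whether the bulk of genes shifted. The fold changes below are relative to that bulk. Every adjusted p is from edgeR's quasi-likelihood test, adjusted over 13438 genes by the method of Benjamini and Hochberg.

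Id1 (ENSRNOG00000021750), a direct target of BMP receptor Smads in many cells, stood at 65.5, 87.0 and 86.8 FPKM in CON samples 1, 2 and 3 and at 141, 138 and 134 FPKM in RA samples 1, 2 and 3. The RA samples were close together and all above the controls, of which sample 1 was the lowest. The mean rose from 79.8 ± 12.4 to 138 ± 3.36 FPKM (SD over 3 samples). Its log2FC was 0.77 (SE 0.110, 95% interval 0.52 to 1.02, adjusted p = 0.00328 by edgeR's quasi-likelihood test). Without CON sample 1 it was 0.65 and Id1 remained a DEG, as it did with any other sample left out.

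Id3 (ENSRNOG00000026124), the Id gene most abundant in these cells, read 169, 244 and 243 FPKM in the CON samples and 360.2, 377 and 372 FPKM in the RA samples. Again the groups were apart, and CON sample 1 was well below the other controls. The mean rose from 219 ± 43.3 to 369.6 ± 8.53 FPKM (SD over 3 samples), a log2FC of 0.74 (SE 0.134, 95% interval 0.44 to 1.05). Its adjusted p was 0.00975 in edgeR's quasi-likelihood test. Without CON sample 1 the log2FC was 0.58, just beyond the fold threshold, and Id3 remained a DEG with each of the 6 samples left out in turn.

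Id2 (ENSRNOG00000007237), which in many tissues responds to more signals than BMPs, differed in its pattern. It stood at 76.9, 76.2 and 75.1 FPKM in CON and at 106, 99.7 and 94.4 FPKM in RA. Here CON sample 1 was level with the other controls, and the groups were apart. The mean was 76.1 ± 0.920 FPKM in CON and 100.0 ± 5.81 FPKM in RA (SD over 3 samples). The log2FC of 0.38 (SE 0.0609, 95% interval 0.24 to 0.52, adjusted p = 0.00570 in edgeR's quasi-likelihood test) was below the fold threshold. It was 0.39 without CON sample 1 and 0.35 to 0.42 with any 1 sample left out, and the adjusted p stayed below 0.05 each time.

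Id4 (ENSRNOG00000016099), the Id gene best known from the nervous system and bone, was by far the least abundant of the Id genes. Its levels were 11.0, 11.9 and 9.47 FPKM in CON and 8.97, 10.6 and 10.5 FPKM in RA. The groups overlapped. Its log2FC was -0.11, with a 95% interval of -0.37 to 0.14 and an adjusted p of 0.588 in edgeR's quasi-likelihood test, so the interval leaves out a rise of the size seen for Id1 and Id3. It was -0.10 without CON sample 1, and it ran from -0.19 without CON sample 3 to -0.03 without RA sample 1.

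The levels of the 4 Id genes, which are scaled by length and so can be added, summed to 322, 419 and 415 FPKM in CON and to 616, 625 and 611 FPKM in RA, 1.60 times the CON mean. Id3 made up 56.4% ± 3.52 of the sum in CON and 59.9% ± 1.24 in RA (SD over 3 samples), Id1 20.7% and 22.3%, Id2 20.1% and 16.2%, and Id4 2.84% and 1.62%. Id3 was thus the main Id transcript in every sample. The ratio of Id3 to Id1 ran only from 2.56 to 2.80 over all 6 samples, CON sample 1 included, whereas the ratio of Id1 to Id4 was 5.98 to 9.17 in CON and 12.8 to 15.7 in RA. These sums and ratios were not tested.

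Smad7 (ENSRNOG00000018359), the inhibitory Smad of both branches, was the gene with the lowest level of the 8. It stood at 3.60, 4.86 and 4.78 FPKM in CON and at 7.58, 6.95 and 6.68 FPKM in RA. The groups were apart, with CON sample 1 the lowest. The mean rose from 4.42 ± 0.706 to 7.07 ± 0.464 FPKM (SD over 3 samples), a log2FC of 0.66 (SE 0.122, 95% interval 0.38 to 0.94, adjusted p = 0.0109 in edgeR's quasi-likelihood test). The call depended on the samples used. Without CON sample 1 the log2FC was 0.54 with an adjusted p of 0.000314 in edgeR's quasi-likelihood test, which missed the fold threshold, and without RA sample 1 it was 0.62 with an adjusted p of 0.0580, which missed the other.

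Smad6 (ENSRNOG00000009173), the inhibitory Smad that acts mainly on BMP signals, read 6.03, 14.5 and 15.6 FPKM in CON and 16.3, 15.7 and 19.1 FPKM in RA. CON sample 1 was further below the other controls than for any of the other 7 genes. RA sample 2 and CON sample 3 were nearly equal, the first higher in FPKM and the second higher in CPM (21.5 against 21.7), so the groups overlapped on that scale. The log2FC of 0.49 had a wide 95% interval, -0.20 to 1.17, and an adjusted p of 0.364 in edgeR's quasi-likelihood test. Without CON sample 1 it was 0.17, with an adjusted p of 0.284, and it was 0.39 to 0.73 with each of the others left out.

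Skil (ENSRNOG00000009899), a gene that TGF-beta induces and whose protein represses Smad targets, stood at 13.3, 11.5 and 10.1 FPKM in CON and at 13.6, 11.9 and 12.2 FPKM in RA. The groups overlapped, and here CON sample 1 was the highest control. Its log2FC was 0.10 (95% interval -0.13 to 0.34, adjusted p = 0.591 in edgeR's quasi-likelihood test). This small value depended on single samples, at 0.21 (adjusted p = 0.0891 in the edgeR fit) without CON sample 1, 0.02 without CON sample 3 and 0.05 without RA sample 1.

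Smurf1 (ENSRNOG00000000999), the ubiquitin ligase, stood at 9.64, 9.93 and 10.4 FPKM in CON and at 11.5, 10.9 and 11.8 FPKM in RA. The groups were narrowly apart. The log2FC of 0.18 (95% interval 0.02 to 0.33) had an adjusted p of 0.152 in edgeR's quasi-likelihood test, and it ran from 0.15, without CON sample 1, to 0.22 with 1 sample left out.

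**Figure D2:**
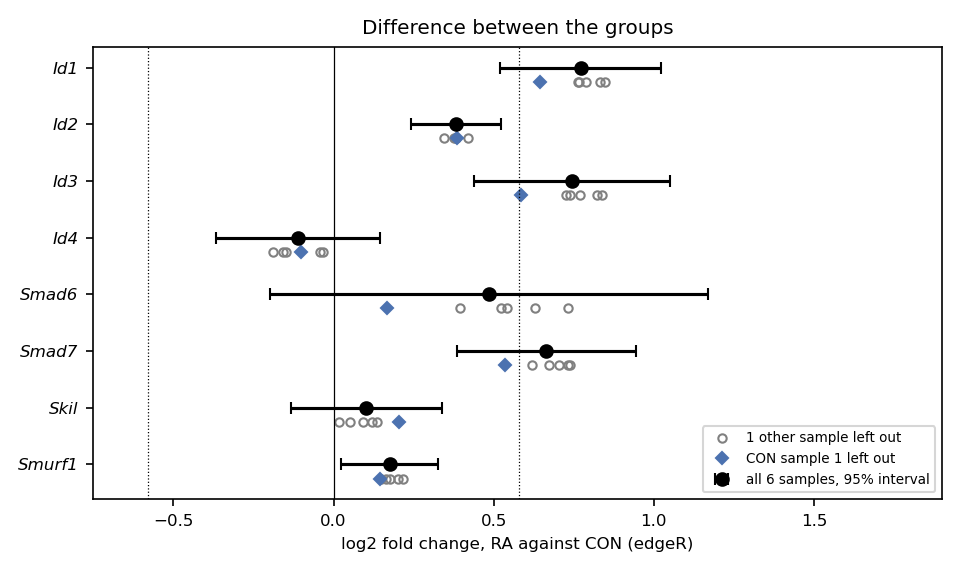
Log2FC of RA against CON from edgeR (x axis) for each gene, with all 6 samples (black, bar: 95% interval), without CON sample 1 (blue diamond) and without each other sample (open circles), the dotted lines marking 0.58 on either side of 0. Id1 and Id3 stay at or beyond the line in every case, Smad7 falls to 0.54 without CON sample 1, and Smad6 moves from 0.49 to 0.17.

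The order of the levels in CON was Id3, Id1, Id2, Smad6, Skil, Id4, Smurf1 and Smad7, and in RA it was Id3, Id1, Id2, Smad6, Skil, Smurf1, Id4 and Smad7. In CON the samples of Id1 and Id2 overlapped, and so did each pair of neighbours from Smad6 to Smurf1, while in RA no 2 neighbours overlapped. The overlaps of Id1 with Id2 and of Smad6 with Skil in CON came from CON sample 1 alone. In CON samples 2 and 3, Id1 stood at 87.0 and 86.8 FPKM above Id2 at 76.2 and 75.1 FPKM, and Smad6 at 14.5 and 15.6 FPKM above Skil at 11.5 and 10.1 FPKM, which is their order in RA. Smad6 stood above Smad7 in every sample, by a ratio of FPKM of 1.68 in CON sample 1, 2.98 and 3.25 in the other controls and 2.15 to 2.86 in RA.

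In CON sample 1, Id1, Id3, Smad6 and Smad7 were low and the other 4 genes were not. On the scale of log2(CPM + 0.5), Id1 was below the mean of CON samples 2 and 3 by a difference of -0.42, Id3 by -0.54, Smad7 by -0.42 and Smad6 by -1.28. Of all genes tested, 11.2% were as far below or further there as Id1, 6.05% as Id3, 11.0% as Smad7 and 0.320% as Smad6. Id2, Id4 and Smurf1 were within 0.09 of the other controls and Skil was 0.28 above them. The 3 DEGs were thus among the genes low in that sample. Atoh8, another BMP target, had the same deviation of -0.42. Among 14 tested genes of a list of other BMP targets, 10 were lowest of the controls in CON sample 1, and 9 of 12 chondrocyte markers and 11 of 19 other TGF-beta targets were, against 42.4% of all genes. The same held for 1 of 5 Smads that carry the signal, 5 of 16 other intracellular modulators, 6 of 10 BMP and GDF ligands, 4 of 11 receptors, 6 of 12 antagonists and 5 of 12 proliferation genes. What set this sample apart was not tested.

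**Figure D3:**
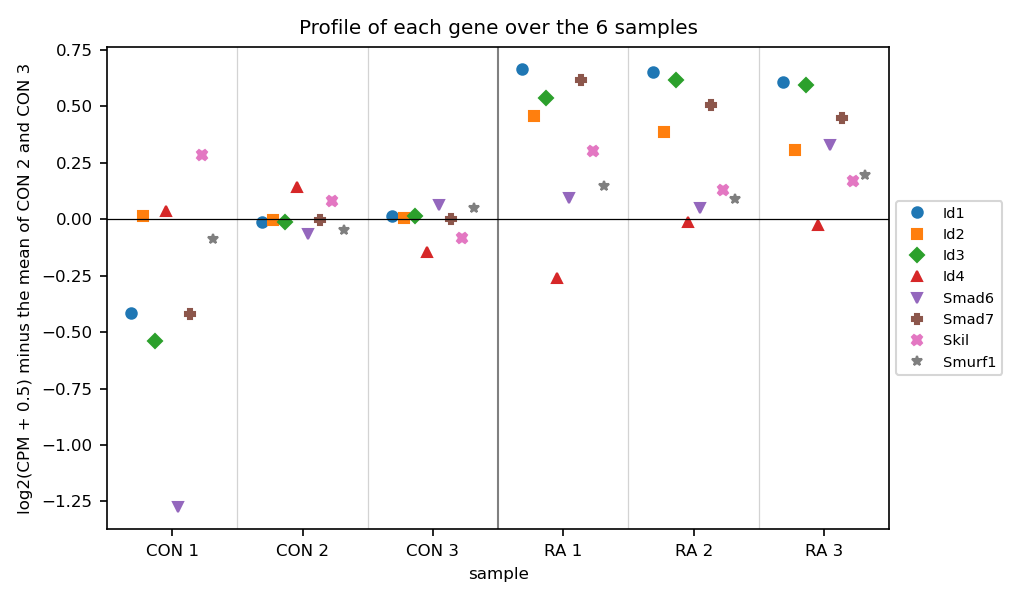
Log2(CPM + 0.5) of each gene minus its mean in CON samples 2 and 3 (y axis) in each of the 6 samples (x axis), 1 symbol for each gene. In CON sample 1 the points of Id1, Id3, Smad6 and Smad7 lie from -1.28 to -0.42 while those of the other 4 genes stay near 0 or above, and in all RA samples Id1, Id3 and Smad7 are among the highest points.

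Each profile over the 6 samples was also set beside those of 11341 other genes with a mean of at least 1 FPKM, by the root mean square difference of log2(CPM + 0.5) centred on the mean of each gene, a measure in which 0 is identity. The gene nearest to Id1 was Prag1, at 0.0345, to Id3 Chst2, at 0.0405, and to Smad7 Tor4a, at 0.0402. The nearest to Id2 was Mgst1, at 0.0254, to Id4 Clec2d, at 0.0439, and to Smad6 Prr7, at 0.0688. Skil was nearest to Rap1b, at 0.0138, and Smurf1 to Aldoc, at 0.0176. Id1 and Id3 were also near each other, at 0.0553, with 4 genes nearer to Id1 than Id3 was and 3 nearer to Id3 than Id1 was. For Smad7 the nearest of the 8 was Id1, at 0.0684, with 4 genes nearer. The other members were less near to each other: Id2 had 818 genes nearer to it than any of the 8, and Id4 had 5936. Such counts also depend on how many genes share a similar profile. Smad6 was further from its nearest member, at 0.277, than Id4 was, at 0.192, but had only 232 genes nearer.

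The rest of the pathway was described with lists of genes, 96 of which were tested. There were 19 DEGs among these, 10 higher and 9 lower in RA, where 2.67% of all genes were DEGs higher, 2.29% lower and 4.96% in either direction. The lists were chosen with earlier results of these data known, so these shares are a description and not a test. Wherever a list below has 0 DEGs in a direction, DESeq2 gave 0 as well. The counts given for an unadjusted p under 0.05 are to be read against the 12.3% higher and 11.7% lower among all genes. Of the DEGs named below, Wwp2, Dlx3, Dlx5, Grem1, Tgfbi, Acta2, Bmp4, Gdf10, Tgfbr3, Fst and Chrdl2 remained DEGs without CON sample 1 and with each other sample left out. The Smads that carry the signal were not among them. Smad1 had a log2FC of 0.15, Smad2 of -0.02, Smad3 of 0.14, Smad4, the shared partner, of -0.16 and Smad5 of -0.13, with adjusted p-values of 0.198 to 0.914 in edgeR's quasi-likelihood test. Smad9 did not pass the filter, at 0.0279 to 0.0293 FPKM in CON and 0.00602 to 0.435 FPKM in RA. The median of the 5 tested was -0.02, and 1 of them, Smad1, was higher and 0 were lower at an unadjusted p under 0.05. With CON sample 1 left out the median was 0.06 (-0.08 without CON sample 3), Smad2 turned to 0.07, Smad3 stood at 0.06, Smad4 at -0.09 and Smad5 at -0.07, and again none was a DEG.

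Among 16 other intracellular modulators of Smad signalling, 0 rose and 1 fell (4 and 2 at an unadjusted p under 0.05, any fold), with a median log2FC of -0.04. The median was -0.01 without CON sample 1 and -0.05 without RA sample 2. The gene that fell was Wwp2, a ubiquitin ligase of the same family as Smurf1 that is abundant in cartilage. It stood at 85.8, 87.2 and 85.9 FPKM in CON and at 38.6, 44.8 and 41.4 FPKM in RA, a log2FC of -1.07 (SE 0.0698, adjusted p = 7.07e-05 in edgeR's quasi-likelihood test). Smurf1 itself, as given above, did not pass the test.

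Of 14 tested genes in the list of other BMP targets, 3 rose and 2 fell, and the median was 0.10. By the adjusted p alone, 3 were higher and 4 lower (5.31% and 4.5% among all genes), and by an unadjusted p under 0.05 it was 4 and 4. Alpl, with a log2FC of -0.42, and Nog, with -0.56, were lower by the adjusted p but missed the fold threshold. Dlx3, a homeobox factor, rose from 0.571, 0.846 and 0.983 FPKM in CON to 2.02, 2.05 and 1.85 FPKM in RA, and Atoh8, a helix-loop-helix factor, from 12.9, 16.7 and 17.8 to 25.4, 26.1 and 25.6 FPKM. The log2FC was 1.28 for Dlx3, 0.69 for Atoh8 and 0.60 for Tmem100, a membrane protein gene. Dlx5, a homeobox factor of bone and cartilage, fell with a log2FC of -0.89 and Grem1, a secreted BMP antagonist, with -0.85. The BMP targets thus did not all move with Id1 and Id3. Without CON sample 1, Atoh8 had a log2FC of 0.56 and was not a DEG. Tmem100 lost its call when CON sample 2 (0.57), RA sample 1 (0.58) or RA sample 3 (0.59) was left out, where its adjusted p by edgeR's quasi-likelihood test was 0.0558 to 0.0592.

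Of 19 tested genes in the list of other TGF-beta targets, 0 rose and 3 fell, although 14 of the 19 had a log2FC above 0 and the median was 0.13. Tgfbi, a secreted matrix protein, fell from 187, 194 and 202 FPKM to 121, 128 and 124 FPKM. Acta2, smooth muscle actin, fell from 103, 104 and 115 to 57.6, 65.4 and 59.5 FPKM. The log2FC was -0.66 for Tgfbi, -0.83 for Acta2 and -0.75 for Nox4, an oxidase that makes hydrogen peroxide. By the adjusted p alone, 5 were higher and 3 lower (5.31% and 4.5% among all genes), and by an unadjusted p under 0.05 it was 6 and 4. The call of Nox4 held only without CON sample 1 (-0.74). With any other sample left out its log2FC was -0.83 to -0.64 and its adjusted p in edgeR's quasi-likelihood test 0.0641 to 0.0982.

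Ligands and antagonists included larger differences than the 8 genes themselves. Of 10 BMP and GDF ligands tested 3 rose and 0 fell (4 and 0 at an unadjusted p under 0.05), with a median of 0.17 that ran from 0.06 without RA sample 2 to 0.28 without CON sample 2. Of 5 TGF-beta and activin ligands 0 passed the test in edgeR (1 higher and 1 lower at an unadjusted p under 0.05). Gdf10, a BMP-like factor, rose from 5.78, 6.14 and 6.33 FPKM to 15.5, 15.7 and 18.2 FPKM, a log2FC of 1.42. Bmp4, an activator of the BMP branch, rose from 11.2, 12.4 and 12.2 FPKM to 19.3, 18.7 and 18.3 FPKM, a log2FC of 0.64. Bmp7, another such ligand, was lower in level, at 0.772 to 1.13 FPKM in CON and 1.72 to 2.23 FPKM in RA, with a log2FC of 1.13. Bmp7 lost its call when CON sample 2 (1.04), RA sample 1 (1.05) or RA sample 2 (1.10) was left out, with adjusted p-values of 0.0566 to 0.0605 in edgeR's quasi-likelihood test.

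Of 12 secreted BMP and activin antagonists tested, 1 rose and 4 fell, and the median was -0.48. Over the 7 with a mean of at least 1 FPKM, 1 rose, 1 fell and the median was -0.06. That mean covers both groups, so a fall can itself take a gene below it, as for Chrdl2 with its CON values given below, and the split does not show where the falls lie. Grem1 fell from 35.2, 32.5 and 28.9 FPKM to 21.0, 16.8 and 16.3 FPKM. Fst, follistatin, which binds activins, rose from 5.50, 5.81 and 7.20 FPKM to 11.0, 10.7 and 10.5 FPKM, a log2FC of 0.78. The chordin-like gene Chrdl2 fell with a log2FC of -2.34, from 0.927 to 1.29 FPKM in CON to 0.125 to 0.339 FPKM in RA. Chrdl1, with -0.69, was called only with all 6 samples or without CON sample 1 (-0.75), the adjusted p in edgeR's quasi-likelihood test being 0.0514 to 0.106 otherwise. Sostdc1, with -1.70 at 0.263 to 0.425 FPKM in CON and 0.0550 to 0.153 in RA, was called in none of the 6 leave-one-out fits, with -1.95 to -1.36 and adjusted p-values of 0.0657 to 0.171 in the same test.

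Among 11 receptors tested 1 rose and 0 fell (2 and 0 at an unadjusted p under 0.05), with a median of 0.03 that was -0.01 without CON sample 1 and ran from -0.06 without RA sample 2 to 0.08 without CON sample 3. This was Tgfbr3, betaglycan, a co-receptor that presents TGF-beta ligands, which went from 9.91, 9.61 and 9.34 FPKM to 16.5, 15.7 and 17.8 FPKM, a log2FC of 0.78.

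**Figure D4:**
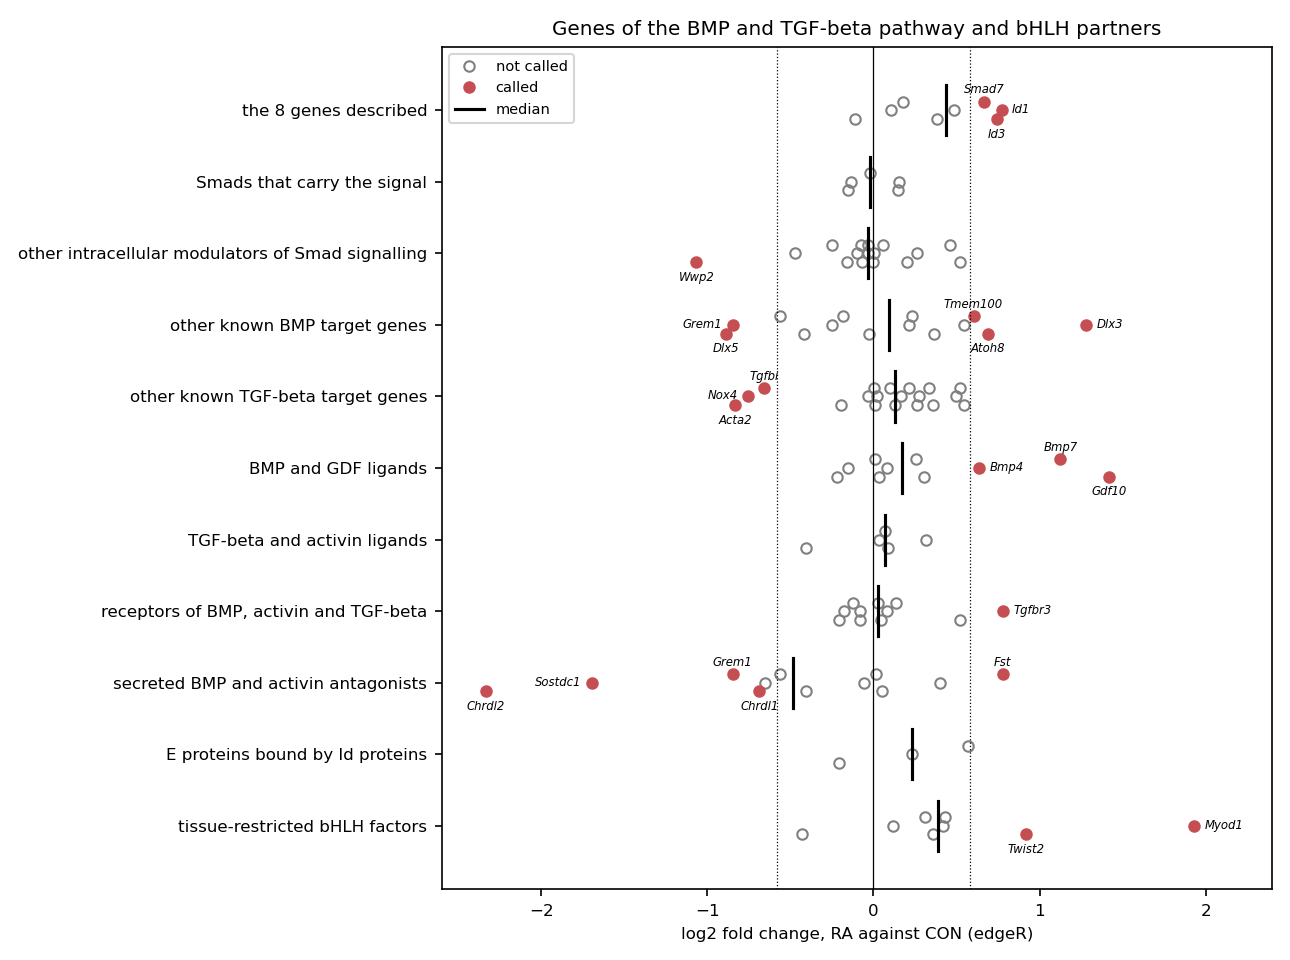
Log2FC of RA against CON from edgeR (x axis) for every tested gene of each list (rows), red where the gene was a DEG and open where not, with the list median as a black bar and dotted lines at 0.58 on either side of 0. The row of the 8 genes holds 3 red points on the right, the Smads that carry the signal cluster at 0, and the antagonists have a median of -0.48. In a separate fit of genes with a mean of at least 1 FPKM, not drawn here, that median is -0.06. A fall can itself take a gene below that mean.

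The E proteins, the partners that Id proteins hold, were present at levels below those of Id1, Id2 and Id3 together. Tcf3 stood at 29.1, 42.9 and 47.4 FPKM in CON and at 45.1, 47.5 and 49.1 FPKM in RA, Tcf12 at 28.7, 24.7 and 25.7 and at 22.0, 23.4 and 23.7 FPKM, and Tcf4 at 12.5, 13.1 and 11.9 and at 20.2, 18.8 and 17.2 FPKM. Tcf4 was higher in RA by the adjusted p alone, with a log2FC of 0.57 (SE 0.0755, adjusted p = 0.00235 in edgeR's quasi-likelihood test) just below the fold threshold, which it passed without CON sample 2 (0.60) or RA sample 3 (0.62). The log2FC was 0.23 for Tcf3 and -0.21 for Tcf12, neither past the test. Tcf3, low in CON sample 1, had 0.05 without that sample and 0.39 without CON sample 3, and Tcf12 had -0.15 without CON sample 1. The sum of the 3 E proteins was 78.7 ± 7.56 FPKM in CON and 88.9 ± 1.47 FPKM in RA (SD over 3 samples). The 4 Id genes summed to 4.58, 5.19 and 4.88 times the E proteins in CON and to 7.06, 6.98 and 6.79 times in RA. Every RA sample was above every CON sample in this ratio of transcript levels, which was not tested and says nothing of the proteins.

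Of 8 tissue-restricted helix-loop-helix factors tested, 2 rose and 0 fell (4 and 1 at an unadjusted p under 0.05), with a median of 0.39. Twist2, a factor of mesenchyme, rose from 1.05, 1.48 and 1.20 FPKM to 2.36, 2.50 and 2.24 FPKM, a log2FC of 0.92. Myod1, a factor of skeletal muscle, was close to absent, at 0.0681 to 0.117 FPKM in CON and 0.282 to 0.432 FPKM in RA, with a log2FC of 1.93. Twist2 was called in 2 and Myod1 in 3 of the 6 leave-one-out fits. Twist2 was lost when CON sample 3 (0.90) or RA sample 1 (0.92), 2 (0.87) or 3 (0.95) was left out, and Myod1 was lost with CON sample 2 (1.76), RA sample 1 (1.80) or RA sample 2 (1.89) left out. Proliferation genes, with which Id genes are often linked, were summed at 554 to 601 FPKM over 12 genes in CON and at 664 to 691 FPKM in RA. Of the 12, 0 were DEGs in edgeR or DESeq2, 2 were higher by the adjusted p alone, 6 by an unadjusted p under 0.05, and their median log2FC was 0.17.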

How the data were processed

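Poly(A) RNA of 3 CON and 3 RA samples was sequenced on an Illumina HiSeq instrument from libraries made with the NEBNext Ultra kit. For each sample the authors deposited a whole-number read count per gene, without normalization. The authors also deposited an FPKM per gene, which the values show to be the count divided by gene length and by the summed counts of the sample. The submitters' processing notes name HISAT2, HTSeq 0.13.5 and the build Rnor_6.0. Strand use and the handling of shared reads are not given in the sources used here, so counts of overlapping, antisense or near-identical genes are uncertain. Samples were grouped by their labels.

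Counts were tested with edgeR 4.0.16 in R 4.3.3 (glmQLFit, glmQLFTest, TMM scaling, filterByExpr with a minimum count of 10, no covariates, p-values adjusted by Benjamini-Hochberg over 13438 genes). Where a symbol had more than 1 identifier (158 identifiers in all), the one with the most counts was used. The call of a DEG required an adjusted p under 0.05 and 0.58 on the log2 scale. Alternatives were other scalings, DESeq2 1.42.0, other filters and thresholds, a replicate block and each sample left out. The limit behind a count of 0, set at 3 counts, was 0.0789 to 0.102 CPM and covers counting error only. The scripts were tested on simulated data.

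The 8 genes and the lists were chosen with earlier results of these data known. Named were all 8 genes, DEGs of the pathway lists (at most 4 at either end of a list), the Smads that carry the signal, the E proteins, and for each of the 8 the gene nearest in profile. Of the marker lists, genes that a statement rests on were named. Some genes stand in more than 1 list, and 6 listed genes of the pathway and partner lists (Ctgf, Gdf7, Mstn, Sost, Tcf15, Myog) had no row of that name. Promoters are RefSeq sequences on GRCr8.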

Additional observations from a re-analysis of the deposited data

How the results depend on the processing

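All 8 genes kept the sign of their log2 fold change in all 14 fits. Of 104 comparisons of a single gene with another fit at the same thresholds, 102 kept the call and 2 lost it, both for Smad7 (without CON sample 1 and without RA sample 1). With 1 sample left out, 2 to 3 of the 8 genes were DEGs higher in RA and 0 were lower, 480 to 755 of all genes were DEGs, and 12 to 19 of the pathway genes. By the adjusted p alone, all genes gave 1319 calls and the pathway lists 32, against 667 and 19. An unadjusted p with the fold threshold gave 1017 calls over all genes. DESeq2 gave 731, and 3 of the 8 genes, as every scaling and filter did. With a replicate block the calls were 684 over all genes, 18 in the pathway lists and 3 of the 8 genes, and Smad6 had a log2 fold change of 0.58 with an adjusted p of 0.135 in edgeR's quasi-likelihood test. The samples share only a number: the correlation of deviations for the same number was 0.161, -0.0142 and 0.0465, and not every sample correlated best with its own number. With 3 samples a group, Smad6 and Id4 have intervals too wide to show a small difference.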

Other observations

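Some neighbours of the 8 genes were chosen after their values were seen. Smurf2, the close relative of Smurf1, stood at 25.2, 22.3 and 21.0 FPKM in CON and at 32.9, 30.9 and 31.1 FPKM in RA, with a log2FC of 0.46 and an adjusted p of 0.00618 in edgeR's quasi-likelihood test, below the fold threshold. Pmepa1, which holds receptor Smads back from the receptor, stood at 32.6, 33.4 and 32.7 FPKM in CON and at 50.9, 45.5 and 46.3 FPKM in RA, with 0.52 and an adjusted p of 0.0016 in the same test. Both had the same sign in all 14 fits. Ski, the relative of Skil, was at 23.4 FPKM in CON sample 1 and at 37.6 and 39.8 FPKM in the other controls, against 31.4 to 33.1 FPKM in RA, so its groups overlapped through CON sample 1 alone. Its log2FC was -0.08 with all samples (adjusted p = 0.826) and -0.28 without that sample (adjusted p = 0.0037, both in edgeR's quasi-likelihood test).

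Among the antagonists, the calls of Nog and Chrd depended on CON sample 1. Nog had a log2FC of -0.56 with all samples and of -0.68 without it, and Chrd of -0.41 and -0.59. Both were DEGs lower in RA without that sample, and neither was with all 6. With all 6, Nog had an adjusted p of 0.0419 in edgeR's quasi-likelihood test and missed only the fold threshold.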
